A study of Mus musculus with 12 samples.

Results

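Small intestine in which necrotizing enterocolitis (NEC) had been induced was compared between mice with a Piezo1 knockout in the intestinal epithelium (CKO) and mice with the floxed allele alone (flox). The comparison rests on 3 CKO and 3 flox libraries and on every gene whose FPKM (fragments per kilobase of gene length, scaled to sequencing depth) reached 1 in 3 or more of these 6, which gave 13673 of the 54532 genes in the table (25.1%). All mice were on the C57BL/6J background, and whole intestinal tissue was sequenced, so the libraries also hold muscle, stroma, vessels, nerves and immune cells that the knockout is not directed at. The sources used here do not give the age of the mice, the way NEC was induced, the Cre driver or the deleted exons. The same 2 genotypes were also sequenced without NEC in 3 libraries each, and these enter below only where a genotype difference is set against its size in uninjured tissue. The labels do not say whether each library came from its own mouse, so a p-value measures the spread between libraries.

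Piezo1 is a very large membrane protein that opens when the membrane is stretched and lets Ca2+ and other cations into the cell. In the intestinal epithelium it is known for sensing crowding and stretch, for extrusion of cells from the villus and for secretion by goblet and enteroendocrine cells. Ca2+ entry activates calmodulin and the Ca2+/calmodulin-dependent kinase CaMKII, which the title of the study names. NEC is an inflammatory and ischaemic necrosis of the immature bowel, in which damage to the epithelial barrier, loss of Paneth and goblet cells and innate immune activation have been described.

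Depth was 13057724 to 15943592 reads per NEC library, and mitochondrial transcripts held 3.47% to 4.52% of the reads. Markers of the absorptive epithelium were abundant in every library, as in villin 1 (Vil1), an actin bundler of the brush border, at 274, 349.9 and 341 FPKM in flox against 319, 304 and 378 FPKM in CKO. By Xist and Y-linked genes, flox libraries 1 and 2 and CKO library 2 were female and the other 3 male, so each group held libraries from at least 2 mice. Libraries of the flox group correlated with each other at r = 0.977 to 0.98 across the 13673 genes, which are not independent replicates, and the CKO libraries with each other at 0.959 to 0.969. The SD of log2(FPKM + 1) was larger in CKO than in flox for 9075 genes (66.4%), with medians of 0.19 and 0.14. CKO library 3 lay farthest from the flox mean in 45.9% of genes, CKO library 1 in 32.9% and CKO library 2 in 21.2%.

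The 3 CKO libraries stood apart from flox in different genes. CKO library 1 was high in transcripts of the proximal small intestine. Fabp1, a fatty acid binding protein of proximal enterocytes, stood at 41.9, 157 and 19 FPKM across flox libraries 1 to 3 and 636, 2.54 and 6.89 FPKM across CKO libraries 1 to 3. The duodenal and jejunal transcription factor Gata4 stood at 2.64, 4.79 and 0.605 FPKM across flox libraries 1 to 3 and 14.7, 0.343 and 0.958 FPKM across CKO libraries 1 to 3, and the hormone gene Gip, expressed by proximal K cells, at 4.04, 5.84 and 2.92 FPKM in flox against 21.3, 0.557 and 1.44 FPKM in CKO. Hoxb9, a homeobox gene of posterior segments that was picked out after its values were seen, showed the opposite order, with 9.4, 6.29 and 18.3 FPKM in flox against 1.15, 13.1 and 18.5 FPKM in CKO. CKO library 1 was thus at the proximal end of these markers and CKO libraries 2 and 3 lay at or near the other end, with the flox libraries mostly between them. The part of position along the gut in the results below was not tested beyond a fit with the mean level of Gata4, Fabp1, Gip and Lct as a covariate, an alternative added after these values were seen, in which 0 genes passed at an adjusted p of 0.05 and 805 had an unadjusted p under 0.05.

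CKO library 2 was high in interferon-inducible genes, described below, and in the C-type lectins Reg3b and Reg3g, which bind bacterial cell walls. Reg3b stood at 92.7, 136 and 359 FPKM across flox libraries 1 to 3 and 57.4, 1376 and 169 FPKM across CKO libraries 1 to 3. CKO library 3 was low in smooth muscle, nerve and mesothelium transcripts. The enteric smooth muscle actin Actg2 stood at 1354, 935 and 1066 FPKM across flox libraries 1 to 3 and 935, 810.2 and 229 FPKM across CKO libraries 1 to 3, and mesothelin (Msln), a marker of the serosal lining, at 33, 17.1 and 14.7 FPKM in flox against 17.1, 11.1 and 2.77 FPKM in CKO. The same library was high in lysosomal transcripts of the suckling enterocyte, such as the protease Lgmn at 494, 446 and 559.5 FPKM in flox against 205, 903 and 1092 FPKM in CKO, where CKO library 2 was also above every flox library and CKO library 1 below them all. In whole tissue, fewer cells of a type and less RNA per cell cannot be told apart.

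**Figure D1:**
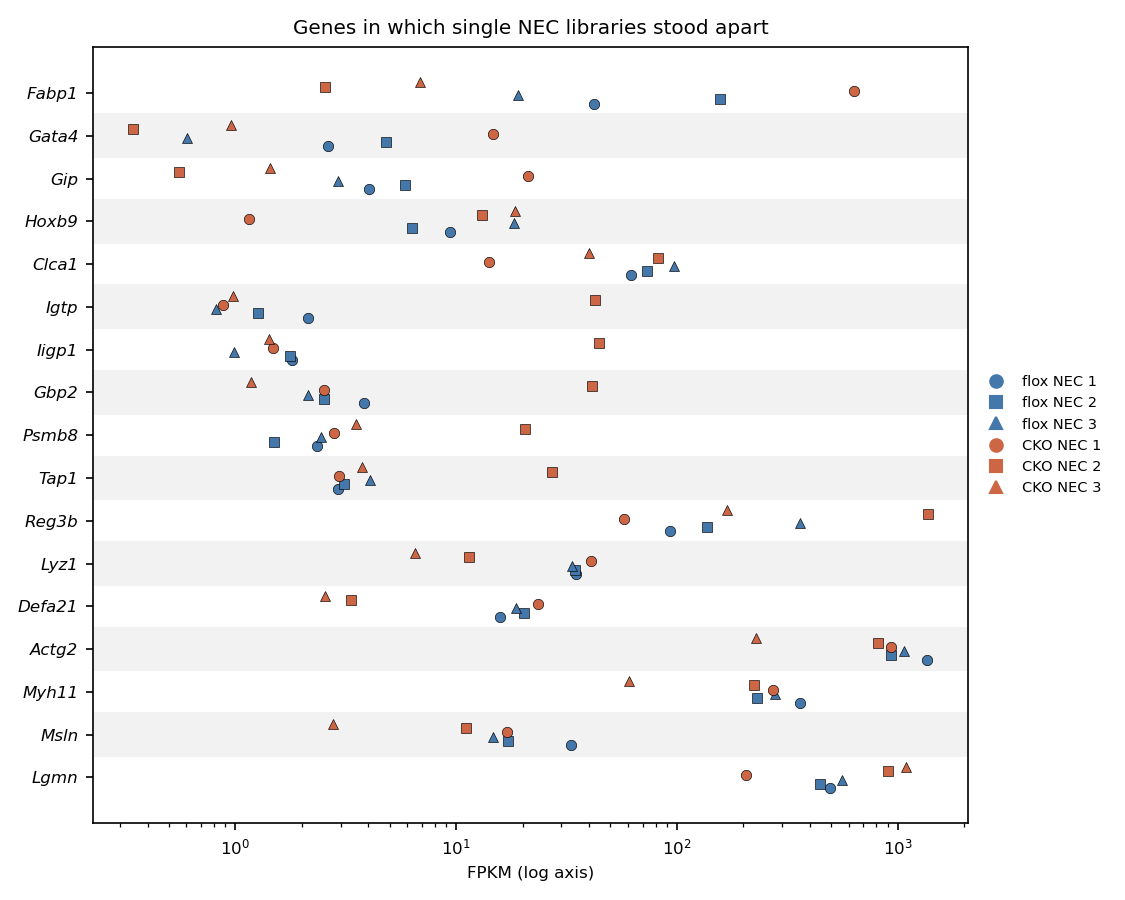
FPKM on a log axis in each of the 6 NEC libraries for genes in which 1 or 2 CKO libraries stood away from the rest, with flox in blue, CKO in orange and the replicate number given by the symbol. CKO library 1 is highest for Fabp1 (636 FPKM), CKO library 2 for Igtp (42.4 FPKM), and CKO library 3 is lowest for Actg2 (229 FPKM).

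Piezo1 (ENSMUSG00000014444, chromosome 8, 122481698 to 122551329 on GRCm38) was lower in all 3 CKO libraries, at 7.38, 7.23 and 6.76 FPKM across flox libraries 1 to 3 and 5.38, 5.58 and 3.23 FPKM across CKO libraries 1 to 3. The groups did not overlap, and CKO library 3 was lowest. The difference in mean log2(FPKM + 1), which is the measure of every difference given below, was -0.53 ± 0.18 (SE) and did not pass limma's test over all genes (adjusted p = 0.84). It ranged from -0.64 to -0.32 when each library in turn was left out, and was smallest without CKO library 3. Gene-level FPKM counts reads from every exon and every cell type, so transcripts of cells outside the epithelium and transcripts of a deleted allele that still hold other exons both remain in these values.

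Of 17 mechanosensitive channel genes, 13 were tested, and 3 lay above and 10 below flox with a median difference of -0.22 (-0.12 without CKO library 3, the lowest library of the list), beside a median of 0.01 over all genes. Values did not overlap in 3 of them, all lower in CKO, where 6.14% of all genes tested had non-overlapping values with CKO lower. Beside Piezo1 these were Tmc7, of the transmembrane channel-like family, at 3.31, 2.85 and 3.43 FPKM in flox against 2.09, 1.84 and 2.62 FPKM in CKO, and Trpm7, a cation channel fused to a kinase, at 20.3, 20.6 and 20.3 FPKM in flox against 16.2, 16.6 and 19.5 FPKM in CKO. Piezo2, the neuronal and enterochromaffin relative of Piezo1, stood at 2.07, 1.29 and 1.73 FPKM in flox against 1.6, 1.39 and 0.935 FPKM in CKO, with overlapping values. Trpm4, a Ca2+-activated monovalent cation channel, stood at 16.6, 21.2 and 22.3 FPKM in flox against 20.9, 22.6 and 26.1 FPKM in CKO.

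The kinase subunits themselves differed little. Camk2b stood at 3.35, 3.7 and 3.87 FPKM across flox libraries 1 to 3 and 4.09, 3.97 and 4.36 FPKM across CKO libraries 1 to 3, which did not overlap, with a difference of 0.15 ± 0.10 (limma adjusted p = 0.84). Camk2d stood at 9.57, 10.1 and 9.56 FPKM in flox against 8.47, 8.61 and 10.3 FPKM in CKO and Camk2g at 10.7, 9.6 and 10.4 FPKM in flox against 10.2, 9.21 and 8.08 FPKM in CKO, both overlapping, with differences of -0.09 ± 0.11 and -0.15 ± 0.11. Camk2a, the neuronal subunit, stood at 0.901, 0.668 and 1.07 FPKM in flox against 0.779, 0.76 and 0.766 FPKM in CKO and was not tested because too few libraries reached 1 FPKM. Over 12 tested genes of CaMKII, calmodulin and the related kinases, 4 lay above and 8 below flox with a median of -0.02. Camk2b was the 1 of these 12 without overlap, where 4.83% of all genes were higher without overlap. Among 25 genes of Ca2+ entry, stores and calcineurin, 9 lay above and 16 below (median -0.08). The calcineurin-dependent transcription factor Nfatc1, at 3.74, 3.82 and 4.4 FPKM in flox against 3.07, 3.26 and 3.39 FPKM in CKO, and the Na+/Ca2+ exchanger Slc8a1, at 8.95, 7.17 and 7.44 FPKM in flox against 6.31, 6.97 and 1.44 FPKM in CKO, were lower without overlap, the latter mostly through CKO library 3. They were 2 of the 25, a share not far from the 6.14% of all genes that were lower without overlap.

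**Figure D2:**
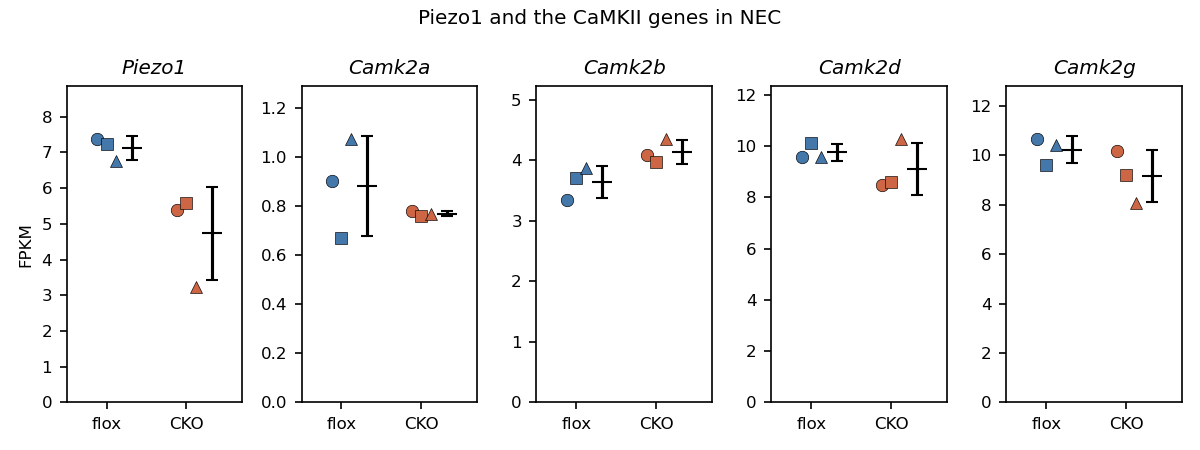
FPKM of Piezo1 and the 4 CaMKII genes in the flox (blue) and CKO (orange) NEC libraries, with circle, square and triangle for replicates 1 to 3 and the mean ± SD (n = 3) in black. All 3 CKO values of Piezo1, 5.38, 5.58 and 3.23 FPKM, lie below the flox values, while Camk2d and Camk2g overlap.

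Across the 13673 genes, limma called 0 (0%) between CKO and flox in NEC at an adjusted p of at most 0.05, and the smallest adjusted p was 0.360. An unadjusted p under 0.05 was reached by 599 genes (4.38%), 297 higher and 302 lower in CKO. On the reads recovered from the FPKM steps, limma-voom also called 0 and gave 578 genes at an unadjusted p under 0.05. The CKO and flox values did not overlap in 1500 genes (11%), with CKO higher in 660 (4.83%) and lower in 840 (6.14%). The median size of the difference was 0.12 against a median SE of 0.15, and 66 genes differed by at least 1 on the log2 scale, 35 higher and 31 lower, of which 30 did not overlap. The genes described below therefore show which transcripts stood apart in these 6 libraries, and none of them passed the test.

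**Figure D3:**
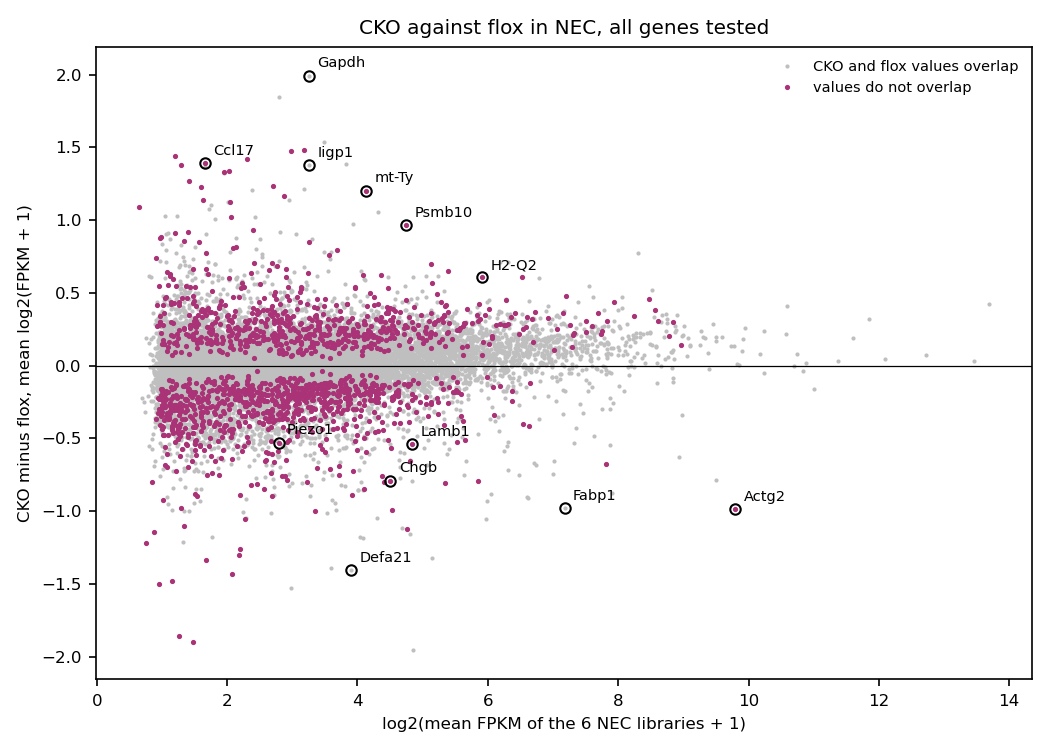
Difference of CKO from flox in mean log2(FPKM + 1) against the mean level of each of the 13673 genes tested in NEC, with genes whose values do not overlap in purple and some genes of the text circled. Most genes lie near 0 (median size 0.12), and the points at high differences are mostly genes of low level.

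The gene with the smallest p in each direction was short or non-coding and rested on few reads. Gm25780, a small RNA gene of 253 bases, had 13, 12 and 13 reads in flox and 5, 3 and 2 in CKO, a difference of -1.33 ± 0.16 (limma adjusted p = 0.36). Rpl35a-ps3, a ribosomal protein pseudogene whose reads may come from its parent gene, had 14, 10 and 13 reads in flox and 30, 33 and 29 in CKO (difference 0.93 ± 0.14, limma adjusted p = 0.485).

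Among genes with a mean of at least 5 FPKM, the 12 with the smallest p and higher values in CKO included H2-Q2, Psme1 and Nmi. H2-Q2, a class I-like histocompatibility gene that shares sequence with its neighbours, stood at 44.7, 52.6 and 43.4 FPKM across flox libraries 1 to 3 and 70.9, 75 and 69.2 FPKM across CKO libraries 1 to 3, a difference of 0.61 ± 0.12 (limma adjusted p = 0.84). Psme1, a subunit of the proteasome activator PA28, stood at 28.7, 33.1 and 32.6 FPKM in flox against 43, 63.2 and 45.3 FPKM in CKO, and Nmi, an interferon-inducible gene, at 4.46, 5.02 and 4.68 FPKM in flox against 7.12, 10.3 and 7.13 FPKM in CKO. In both, CKO library 2 was highest and the other 2 CKO libraries still lay above every flox library. The differences were 0.65 ± 0.16 and 0.67 ± 0.15.

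Nudt1, which removes oxidized purine nucleotides, stood at 5.26, 6.02 and 4.42 FPKM in flox against 8.95, 6.88 and 8.39 FPKM in CKO, and Hax1, a mitochondrial protein that restrains apoptosis, at 6.42, 7.89 and 6.74 FPKM in flox against 9.59, 10.3 and 9.22 FPKM in CKO. Hdhd3, of the haloacid dehalogenase-like hydrolases, had the smallest p of the 12, with 14.3, 17.5 and 13.8 FPKM in flox against 23.6, 22.8 and 25.2 FPKM in CKO (difference 0.62 ± 0.12, limma adjusted p = 0.807). Further genes were Apol7a, of the apolipoprotein L family, Pnp2, a purine nucleoside phosphorylase with a close copy next to it, Gpank1, the elongation factor Elof1 and the mitochondrial transfer RNA mt-Ty, with differences of 0.85, 0.47, 0.46, 0.39 and 1.20. At 67 bases, mt-Ty is shorter than most sequenced fragments, so its FPKM is uncertain.

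The 12 genes ranked lower included the granin gene Chgb and the basement membrane genes Lamb1 and Nid1. Chgb, a granin that packs the secretory granules of enteroendocrine cells and neurons, stood at 22.6, 28.4 and 32.4 FPKM across flox libraries 1 to 3 and 15.1, 18.2 and 13.5 FPKM across CKO libraries 1 to 3, a difference of -0.79 ± 0.17 (limma adjusted p = 0.84). Lamb1, a laminin chain, stood at 35.6, 27.6 and 35.4 FPKM in flox against 22.1, 23.2 and 21.2 FPKM in CKO, and Nid1, which links laminin to type IV collagen, at 57.7, 51.1 and 51.7 FPKM in flox against 32.5, 43.1 and 35.4 FPKM in CKO. The differences were -0.54 ± 0.13 and -0.53 ± 0.13, and the CKO values of Lamb1 lay close together. Pdgfra, the receptor of subepithelial fibroblasts, stood at 21.6, 16.7 and 19 FPKM in flox against 12.6, 15.5 and 11.7 FPKM in CKO. Ednrb, an endothelin receptor needed by the enteric neural crest, stood at 23.9, 17.9 and 22.1 FPKM in flox against 14.8, 14.9 and 15.7 FPKM in CKO.

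Klf9, a transcription factor induced by glucocorticoids, stood at 23.4, 21.6 and 24.3 FPKM across flox libraries 1 to 3 and 18.1, 16.3 and 15.9 FPKM across CKO libraries 1 to 3 (difference -0.44 ± 0.10). Man2a1, the Golgi mannosidase of N-glycan trimming, stood at 32, 30.1 and 28.6 FPKM in flox against 23.3, 23.5 and 21.8 FPKM in CKO, and Gcnt2, a branching glycosyltransferase, at 11.4, 9.45 and 10.6 FPKM in flox against 8.15, 6.76 and 7.15 FPKM in CKO. Each of these 3 separated the groups with little spread inside them. The chemokine Ccl9, a myeloid attractant, stood at 6.92, 7.21 and 6.58 FPKM in flox against 3.3, 5.23 and 2.94 FPKM in CKO. Tsc22d2, the membrane tether Esyt2 and the pseudogene Tmem181c-ps differed by -0.36, -0.39 and -0.50. The limma adjusted p of the 24 ranked genes was 0.807 to 0.840.

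**Figure D4:**
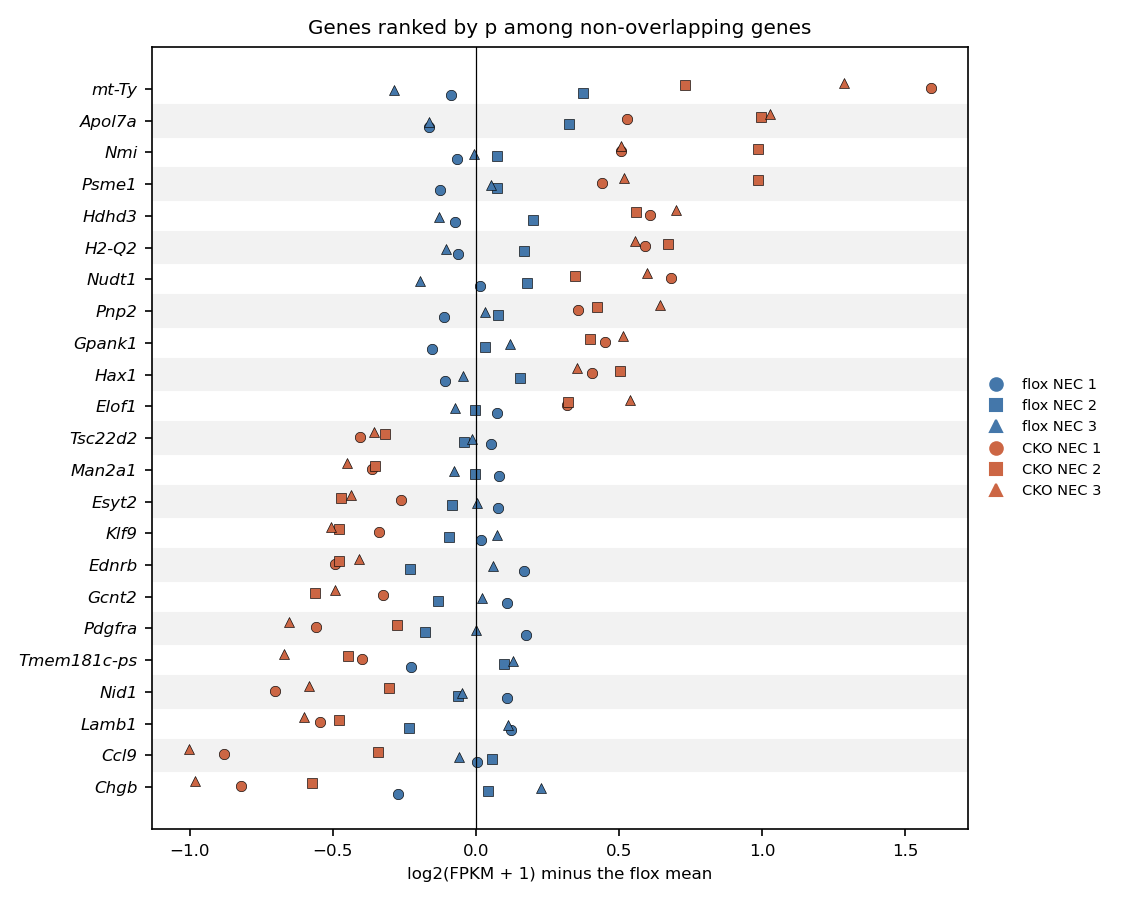
Each library's log2(FPKM + 1) less the flox mean, for the described genes higher and lower in CKO among those with the smallest p, at least 5 mean FPKM and groups that do not overlap (flox blue, CKO orange, symbols for replicates). The groups are apart in every gene because the genes were chosen for that, and CKO library 2 lies farthest out for Psme1 and Nmi.

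Interferon-stimulated transcripts were the group in which CKO library 2 was most unlike the others. Interferons are secreted signals of infection, and the promoters of their targets carry an interferon-stimulated response element, with a core of GAAANNGAAA, or a gamma-activated site, TTCNNNGAA. Both were searched on both strands in RefSeq promoters on GRCm38.p6 (250 bases before to 50 bases after a gene's start), where an occurrence of one may overlap the other. The promoters of 4 genes that were highest in CKO library 2 and hold the first motif are shown, with matches to either motif in capitals.
Gbp2 (chr3:142620413-142620712, + strand): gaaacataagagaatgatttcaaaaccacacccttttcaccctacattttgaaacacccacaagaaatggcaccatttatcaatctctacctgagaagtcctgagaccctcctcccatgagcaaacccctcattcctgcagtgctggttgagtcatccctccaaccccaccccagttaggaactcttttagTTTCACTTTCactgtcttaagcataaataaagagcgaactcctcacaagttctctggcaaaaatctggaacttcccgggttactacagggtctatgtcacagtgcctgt
Igtp (chr11:58199306-58199605, + strand): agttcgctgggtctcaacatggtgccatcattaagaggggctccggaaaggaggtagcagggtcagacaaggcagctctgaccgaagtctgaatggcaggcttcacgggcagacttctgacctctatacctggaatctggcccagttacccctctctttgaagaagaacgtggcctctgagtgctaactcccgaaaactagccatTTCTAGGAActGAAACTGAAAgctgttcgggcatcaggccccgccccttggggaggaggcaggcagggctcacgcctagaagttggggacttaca
Ifit1 (chr19:34640639-34640938, + strand): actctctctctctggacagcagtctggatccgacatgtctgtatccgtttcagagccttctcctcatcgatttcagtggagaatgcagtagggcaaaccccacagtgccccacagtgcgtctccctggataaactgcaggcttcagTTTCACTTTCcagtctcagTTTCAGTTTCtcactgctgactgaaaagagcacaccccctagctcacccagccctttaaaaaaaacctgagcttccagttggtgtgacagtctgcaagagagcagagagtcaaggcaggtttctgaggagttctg
Isg15 (chr4:156200769-156201068, - strand): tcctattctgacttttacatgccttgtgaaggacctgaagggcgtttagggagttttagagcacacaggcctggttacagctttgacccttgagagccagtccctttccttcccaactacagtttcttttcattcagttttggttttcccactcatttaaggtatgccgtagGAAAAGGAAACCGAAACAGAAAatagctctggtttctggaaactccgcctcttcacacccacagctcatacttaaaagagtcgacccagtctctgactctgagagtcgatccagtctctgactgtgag
The core GAAANNGAAA was found once in Gbp2 and Igtp, 2 times in Ifit1 and 3 times, overlapping, in Isg15, and Igtp also held TTCNNNGAA. Of the 25 interferon-stimulated genes tested, 20 matched a promoter by symbol, and 13 of these (65%) held GAAANNGAAA, beside 3.5% of the 9687 tested genes with a promoter in the table. TTCNNNGAA was held by 5 of the 20 (25%), beside 7.86%. A match describes these letters only.

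The guanylate-binding protein Gbp2, which attacks vacuoles of intracellular microbes, stood at 3.81, 2.53 and 2.13 FPKM across flox libraries 1 to 3 and 2.53, 41.2 and 1.18 FPKM across CKO libraries 1 to 3. The immunity-related GTPases Igtp and Iigp1 stood at 2.13, 1.27 and 0.814 FPKM in flox against 0.881, 42.4 and 0.978 FPKM in CKO and at 1.8, 1.77 and 0.986 FPKM in flox against 1.48, 44.2 and 1.43 FPKM in CKO. Only CKO library 2 was high in these 3 genes. Ifit1, which binds viral RNA, stood at 4.96, 9.59 and 7.87 FPKM in flox against 6.82, 24.8 and 11.8 FPKM in CKO, and the ubiquitin-like Isg15 at 0.87, 1.37 and 0.379 FPKM in flox against 0.785, 10.2 and 1.49 FPKM in CKO, where CKO library 3 was second highest. Tetherin (Bst2), at 7.29, 7.44 and 8.72 FPKM in flox against 8.75, 27.4 and 11.8 FPKM in CKO, and the RNA sensor Ifih1, at 2.56, 3.23 and 2.5 FPKM in flox against 3.43, 4.11 and 3.32 FPKM in CKO, were the 2 genes of the list whose groups did not overlap, a share of the 25 not far from the 4.83% of all genes that were higher without overlap. Of 25 tested genes 24 lay above flox, with a median difference of 0.59, and limma called none of them. A per-library median was taken over the tested members of log2(FPKM + 1) less the flox mean of each gene. It was -0.07, 0.14 and -0.09 in the flox libraries and -0.10, 1.32 and 0.20 in the CKO libraries. Without CKO library 1 the median difference was 0.95. Without CKO library 2 the median difference was 0.05, with 15 of 23 above flox.

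Genes of class I presentation followed the same library but also stood higher in CKO library 3. The immunoproteasome subunit genes Psmb8, Psmb9 and Psmb10, which cut peptides for class I molecules, did not overlap between groups. Psmb10 stood at 13.2, 17.3 and 19 FPKM across flox libraries 1 to 3 and 27.4, 54.4 and 23.6 FPKM across CKO libraries 1 to 3, Psmb9 at 1.16, 1.29 and 1.29 FPKM in flox against 2.13, 10.5 and 2.3 FPKM in CKO and Psmb8 at 2.35, 1.49 and 2.43 FPKM in flox against 2.8, 20.6 and 3.53 FPKM in CKO. In all 3 genes CKO library 2 was far above the other 2 CKO libraries, which were themselves above flox. B2m, the light chain of class I molecules, stood at 213, 212 and 227 FPKM in flox against 224, 410.3 and 299.9 FPKM in CKO, and the heavy chain H2-D1 at 139.5, 159 and 172 FPKM in flox against 129, 269.9 and 294 FPKM in CKO. CKO library 1 was within the flox range in B2m and below it in H2-D1. Tap1, of the peptide transporter, was high in CKO library 2 alone, at 2.91, 3.1 and 4.08 FPKM in flox against 2.96, 27.1 and 3.76 FPKM in CKO. Of 20 tested genes of histocompatibility and antigen processing, 19 lay above flox (median 0.47), 5 without overlap, where 4.83% of all genes were higher without overlap. The median was 0.18 without CKO library 2, with 15 of 20 above flox. Class II genes were more even, as in H2-Aa at 10.3, 11.4 and 13 FPKM in flox against 10.6, 16.1 and 13.4 FPKM in CKO and the invariant chain Cd74 at 38.8, 37.9 and 51.1 FPKM in flox against 26.7, 62.4 and 40.5 FPKM in CKO.

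Cytokine transcripts were sparse. Of 19 cytokine genes 8 were tested, with a median difference of 0.01. Tnf stood between 0.0422 and 0.217 FPKM, Il6 was listed at 0 in 5 libraries and Il22 was listed at 0 in all 6. Il18, the cytokine stored in epithelial cells, stood at 13.3, 14.2 and 9.3 FPKM in flox against 16.9, 10 and 12.3 FPKM in CKO. Of 26 chemokine genes 14 were tested, 7 above and 7 below flox. Among the 14, 2 were higher and 1 lower without overlap, where 4.83% of all genes were higher and 6.14% lower without overlap. Ccl17, which attracts T cells through CCR4, stood at 0.284, 0.539 and 1.53 FPKM across flox libraries 1 to 3 and 2.77, 4.09 and 3.71 FPKM across CKO libraries 1 to 3, a difference of 1.39 ± 0.26 without overlap. The interferon-induced chemokines Cxcl9 and Cxcl10 reached 1.23 and 1.53 FPKM in CKO library 2 and at most 0.0787 and 0.211 FPKM elsewhere. Genes of innate receptors and of NF-kappaB had medians of -0.01 and -0.02, the first 0.02 with quantile normalization.

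Paneth cell transcripts were, by the per-library median of the list, low in CKO libraries 2 and 3 and not in CKO library 1. Paneth cells sit at the crypt base and release alpha-defensins and lysozyme. Lyz1, the lysozyme of these cells, stood at 34.9, 34.4 and 33.7 FPKM across flox libraries 1 to 3 and 41, 11.5 and 6.54 FPKM across CKO libraries 1 to 3, and the alpha-defensin gene Defa21 at 15.7, 20.2 and 18.7 FPKM in flox against 23.4, 3.35 and 2.53 FPKM in CKO. CKO library 1 was the highest of all 6 in both. Itln1, a lectin, stood at 17.8, 16 and 11.1 FPKM in flox against 16.3, 3.35 and 1.86 FPKM in CKO. Ang4, an antimicrobial ribonuclease, at 3.3, 3.51 and 4.04 FPKM in flox against 1.34, 2.25 and 1.69 FPKM in CKO, and Defa24, at 268, 287 and 260.4 FPKM in flox against 198, 214 and 114 FPKM in CKO, were lower in all 3 CKO libraries without overlap. They were 2 of 12 tested members, where 6.14% of all genes were lower without overlap. Ang4 was lowest in CKO library 1. Alpha-defensin genes are near-identical copies, so the share of reads given to each is uncertain. All 12 tested members lay below flox with a median of -0.87, and limma called none of them. The per-library median of the list was 0.16, -1.13 and -1.45 in the CKO libraries and -0.11, 0.08 and 0.02 in the flox libraries. Without CKO library 1 the median difference was -1.36, and without CKO library 3 it was -0.62.

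Goblet cell transcripts showed another order, with CKO library 1 lowest and CKO library 2 at the level of the higher flox libraries. The mucin gene Muc2 stood at 64.6, 74.7 and 111 FPKM across flox libraries 1 to 3 and 21.5, 119 and 60.4 FPKM across CKO libraries 1 to 3, the mucus protein gene Clca1 at 62.3, 73 and 97.2 FPKM in flox against 14.1, 82.4 and 39.9 FPKM in CKO and the mucin-folding disulfide isomerase Agr2 at 92.3, 83.1 and 108 FPKM in flox against 34.4, 102 and 51.4 FPKM in CKO. No member separated the groups. Of 12 tested members 11 lay below flox (median -0.44), with per-library medians of -0.85, 0.19 and -0.50 in the CKO libraries. The median difference was -0.10 without CKO library 1 and -0.25 without flox library 3. CKO library 1 was also the one with high Fabp1 and Gata4, and the part of that in the goblet values was not tested.

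Of the enteroendocrine genes, Chgb, Chga and Pcsk1, which serve secretory granules, were lower in all 3 CKO libraries without overlap, 3 of 15 tested where 6.14% of all genes were lower without overlap. Chga, the chromogranin used as a pan-endocrine marker, stood at 11.8, 17.3 and 16.9 FPKM across flox libraries 1 to 3 and 9.41, 11 and 6.92 FPKM across CKO libraries 1 to 3, and Pcsk1, a prohormone convertase, at 2.0, 1.49 and 1.9 FPKM in flox against 0.858, 1.17 and 0.882 FPKM in CKO. The hormone genes differed among themselves. Gcg, the proglucagon gene, stood at 41.1, 31.2 and 38 FPKM in flox against 19.2, 29.6 and 34.3 FPKM in CKO. Pyy, of distal L cells, stood at 31.5, 35.2 and 46.3 FPKM in flox against 17.3, 53.9 and 63.9 FPKM in CKO, and neurotensin (Nts), of distal N cells, at 35.4, 33.9 and 42.3 FPKM in flox against 19.3, 40.3 and 53.8 FPKM in CKO, lowest in CKO library 1 where Gip was highest. Of 15 tested genes 11 lay below flox (median -0.23). The granins are also expressed by enteric neurons, whose tested markers lay below flox in 11 of 12 genes (median -0.46). Without CKO library 3 the neuron median was -0.15, and Chgb and Chga differed by -0.70 and -0.53. The part of neurons in the granin values was not tested.

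Absorptive enterocyte genes as a group did not separate the genotypes. Of 23 tested genes 13 lay above and 10 below flox (median 0.02, and -0.09 with quantile normalization), and none was without overlap. Sucrase-isomaltase (Sis), a disaccharidase of the mature gut, stood at 74.2, 182 and 113 FPKM in flox against 127, 45.1 and 39.2 FPKM in CKO, within the range of flox in CKO library 1 and below it in the other 2. Genes of the suckling enterocyte, which takes up milk protein for digestion in large lysosomes, differed in their order across libraries. The receptor component Amn stood at 99.8, 124 and 144 FPKM in flox against 113, 152 and 226 FPKM in CKO and the endocytic adaptor Dab2 at 39.9, 37.6 and 40.1 FPKM in flox against 18.8, 56.9 and 58.3 FPKM in CKO. Lactase (Lct), also of the list, had the opposite order, at 13.6, 30.1 and 17.1 FPKM in flox against 47.7, 5.48 and 7.9 FPKM in CKO. Per-library medians were -0.55, 0.12 and 0.58 in the CKO libraries for suckling genes and -0.39, 0.19 and 0.70 for lysosomal genes. In flox they were -0.14, 0.01 and 0.11 and -0.08, -0.05 and 0.10. The 2 lists, which share members, were by these medians lowest in CKO library 1 and highest in CKO library 3. The ileal genes of bile acid handling were mixed, with Fabp6 at 362, 224 and 185 FPKM in flox against 186, 149 and 292 FPKM in CKO and Slc10a2 at 16.5, 22.7 and 21.1 FPKM in flox against 6.66, 21.4 and 14 FPKM in CKO.

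Junction genes differed little. Tjp1, the scaffold ZO-1, stood at 25.2, 28.1 and 24.6 FPKM across flox libraries 1 to 3 and 19.9, 22.2 and 19 FPKM across CKO libraries 1 to 3, a difference of -0.34 ± 0.11 (limma adjusted p = 0.84) without overlap. Cxadr, an adhesion protein of the tight junction, stood at 22.3, 19.7 and 19.7 FPKM in flox against 16.2, 16.5 and 18.8 FPKM in CKO, and the desmosomal cadherin Dsg2 at 44.6, 46 and 43.5 FPKM in flox against 36.4, 33.9 and 41.9 FPKM in CKO, both just below flox without overlap. Tjp1 and Cxadr were 2 of 12 tight junction genes and Dsg2 was 1 of 11 genes of its list, where 6.14% of all genes were lower without overlap. Other scaffolds did not follow, as in occludin (Ocln) at 36.9, 42.8 and 43.4 FPKM in flox against 33.6, 38.7 and 45.6 FPKM in CKO. Over 12 tight junction genes, 11 genes of adherens junctions and desmosomes and 9 claudins tested, the medians were -0.04, -0.02 and 0.02, the last -0.06 with quantile normalization.

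Of 23 cell cycle genes 21 lay above flox by small differences (median 0.15, with 0.09 without flox library 3, 0.09 without CKO library 1 and 0.23 without CKO library 3), and the survivin gene Birc5, at 6.34, 7.57 and 6.63 FPKM in flox against 9.9, 8.07 and 7.84 FPKM in CKO, was the member without overlap, 1 of 23 where 4.83% of all genes were higher without overlap. Stem cell and Wnt target genes had a median of -0.02. Olfm4, a crypt gene that was picked out after its values were seen, stood at 18.1, 14.9 and 17.4 FPKM in flox against 72.8, 11.1 and 14.5 FPKM in CKO, high in CKO library 1 alone. Targets of YAP and of injured epithelium lay below flox in 10 of 12 genes (median -0.32), among them Cyr61, a matrix protein gene and YAP target, at 9.92, 9.84 and 15.6 FPKM in flox against 8.18, 8.68 and 7.97 FPKM in CKO. The list had per-library medians of -0.20, -0.15 and -0.49 in the CKO libraries and holds Msln, its largest difference at -1.18. Without CKO library 3, the library low in muscle and mesothelium, the median difference of the list was -0.15. The part of these tissues in it was not tested.

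Some mediators of cell death had higher values in CKO and others lower. The BH3-only gene Bid stood at 5.83, 5.5 and 6.61 FPKM across flox libraries 1 to 3 and 7.19, 8.26 and 10.9 FPKM across CKO libraries 1 to 3 and the pore-forming Bak1 at 31.4, 37.4 and 35.7 FPKM in flox against 39.3, 45.4 and 44.4 FPKM in CKO, both without overlap. The anti-apoptotic Bcl2 lay on the other side, at 1.99, 1.9 and 2.14 FPKM in flox against 1.75, 1.88 and 1.35 FPKM in CKO. Over 23 apoptosis genes the median was 0.03, with 13 above and 10 below. Of these 23, 4 were higher and 1 lower without overlap, where 4.83% of all genes were higher and 6.14% lower without overlap. Of 17 tested genes of necroptosis, pyroptosis and ferroptosis, 12 lay above flox (median 0.22, and 0.08 without CKO library 2 and 0.07 without CKO library 3). Among the 17, 2 were higher and 1 lower without overlap. The inflammasome adaptor Pycard stood at 19.6, 24.9 and 20.7 FPKM in flox against 29.6, 27.6 and 32.6 FPKM in CKO and the epithelial sensor Nlrp6 at 15.4, 16.8 and 15.3 FPKM in flox against 28.1, 18.7 and 19.1 FPKM in CKO, both without overlap, while the lipid enzyme Acsl4, which favours ferroptosis, was lower without overlap, at 4.83, 3.46 and 3.35 FPKM in flox against 3.25, 2.94 and 1.74 FPKM in CKO. Gasdermin D (Gsdmd), the pore of pyroptosis, overlapped, at 24.3, 44 and 28.9 FPKM in flox against 37.5, 57.4 and 43.2 FPKM in CKO.

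Glucocorticoid-induced genes lay below flox in 9 of 11 members (median -0.24, and -0.37 without flox library 1). Of the 11, 3 were lower without overlap, where 6.14% of all genes were lower without overlap. Beside Klf9, the transcription factor gene Zbtb16 stood at 2.5, 3.14 and 3.26 FPKM across flox libraries 1 to 3 and 2.27, 1.53 and 0.575 FPKM across CKO libraries 1 to 3 and the clock gene Per1 at 20.7, 25.3 and 31.3 FPKM in flox against 20.5, 20.4 and 16.7 FPKM in CKO, both without overlap, while Fkbp5, a chaperone used as a readout of the receptor, stood at 10.5, 18.1 and 14.1 FPKM in flox against 17.1, 8.97 and 7.66 FPKM in CKO with overlap. Of 15 clock genes 12 lay below flox (median -0.11, and -0.07 without CKO library 1). Nr1d2, a repressor of the clock, stood at 13.2, 13.6 and 13 FPKM in flox against 11.2, 10.3 and 10.1 FPKM in CKO and Clock itself at 7.81, 7.88 and 7.55 FPKM in flox against 6.68, 6.81 and 6.35 FPKM in CKO, and with Per1 these were the 3 of 15 without overlap, where 6.14% of all genes were lower without overlap. The sources used here do not give the hours at which tissue was taken. Immediate early genes, which respond within minutes to handling and stress, lay below in 9 of 13 (median -0.18, with -0.10 without flox library 3 and -0.32 without CKO library 3), with Fos at 15.9, 22 and 15.9 FPKM in flox against 14, 8.4 and 9.27 FPKM in CKO. Nuclear genes of oxidative phosphorylation lay above flox in 23 of 23 members and those of fatty acid oxidation in 16 of 17, by medians of 0.09 and 0.11. The first list was above flox in CKO libraries 1 and 3 and below it in CKO library 2. Its per-library medians were 0.18, -0.13 and 0.22, against -0.07 to 0.06 in flox. The median difference of this list was 0.02 without CKO library 1, with 16 of 23 above flox, and 0.21 without CKO library 2. It was 0.04 without CKO library 3, with 15 of 23 above flox. The median of the second was 0.22 without CKO library 2 and -0.02 without CKO library 3. With quantile normalization, 16 of 23 and 11 of 17 lay above flox, and the 2 medians were 0.01 and 0.02.

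Muscle, stromal and nerve transcripts lay below flox, most of all in CKO library 3. All 12 smooth muscle genes tested were lower on average (median -0.72). The per-library medians were -0.12, -0.32 and -1.89 in the CKO libraries and 0.32, -0.30 and -0.03 in flox. The smooth muscle myosin Myh11 stood at 362, 229.6 and 278 FPKM across flox libraries 1 to 3 and 271, 225 and 60.9 FPKM across CKO libraries 1 to 3. Without CKO library 3 the median of the list was -0.21. Enteric neuron genes followed, with a median of -0.46, and -0.15 without that library and -0.25 without flox library 1.

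Fibroblast and matrix genes lay below flox in all 18 members (median -0.41), 8 of them without overlap, where 6.14% of all genes were lower without overlap. Fibronectin (Fn1) stood at 56, 42.3 and 51 FPKM across flox libraries 1 to 3 and 35.6, 35 and 17.2 FPKM across CKO libraries 1 to 3, the type IV collagen gene Col4a1 at 110.0, 94.1 and 109.8 FPKM in flox against 92.6, 87.1 and 60.5 FPKM in CKO and Col6a2 at 53, 50.6 and 59.9 FPKM in flox against 44.7, 43.5 and 36.8 FPKM in CKO. CKO library 3 was lowest in each, and the other 2 CKO libraries also lay under the lowest flox value. Without CKO library 3 the median was -0.20, with all 18 still below flox. Flox library 1 had the highest per-library median of the flox libraries here, as it did in smooth muscle and mesothelium. Without flox library 1 the median difference was -0.34.

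Resident macrophage genes lay below flox in all 10 tested (median -0.27). With quantile normalization, without flox library 1 or without CKO library 1, 8 of 10 lay below flox. C1qc, of the complement C1q chains that gut macrophages make, stood at 6.85, 6.99 and 8.6 FPKM across flox libraries 1 to 3 and 5.75, 6.21 and 4.79 FPKM across CKO libraries 1 to 3, the mannose receptor Mrc1 at 2.79, 2.98 and 3.14 FPKM in flox against 1.93, 2.56 and 1.62 FPKM in CKO and the haemoglobin scavenger receptor Cd163 at 1.94, 1.84 and 1.43 FPKM in flox against 1.13, 1.41 and 0.724 FPKM in CKO, each without overlap. These were 3 of the 10 tested, where 6.14% of all genes were lower without overlap. Most markers of other infiltrating cells were near the floor. Of 13 neutrophil genes 3 were tested, with differences of -0.925 in Retnlg, -0.54 in Mmp9 and 0.46 in Ltf. Mmp9, a secreted gelatinase, stood at 12.1, 10.6 and 12.2 FPKM in flox against 5.92, 9.38 and 8.06 FPKM in CKO. The calgranulin gene S100a8 stood at most at 0.309 FPKM. Only 1 T and NK cell gene, 1 B cell gene and no mast cell gene were tested. Of 15 tested vascular genes 4 lay above and 11 below flox (median -0.09, and -0.01 without CKO library 2, with 7 above and 8 below). The VEGF receptor Kdr, at 10.2, 8.49 and 8.39 FPKM in flox against 7.54, 7.04 and 5.91 FPKM in CKO, had the lowest difference of the list (-0.36). The claudin gene Cldn5 had the highest (0.51).

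**Figure D5:**
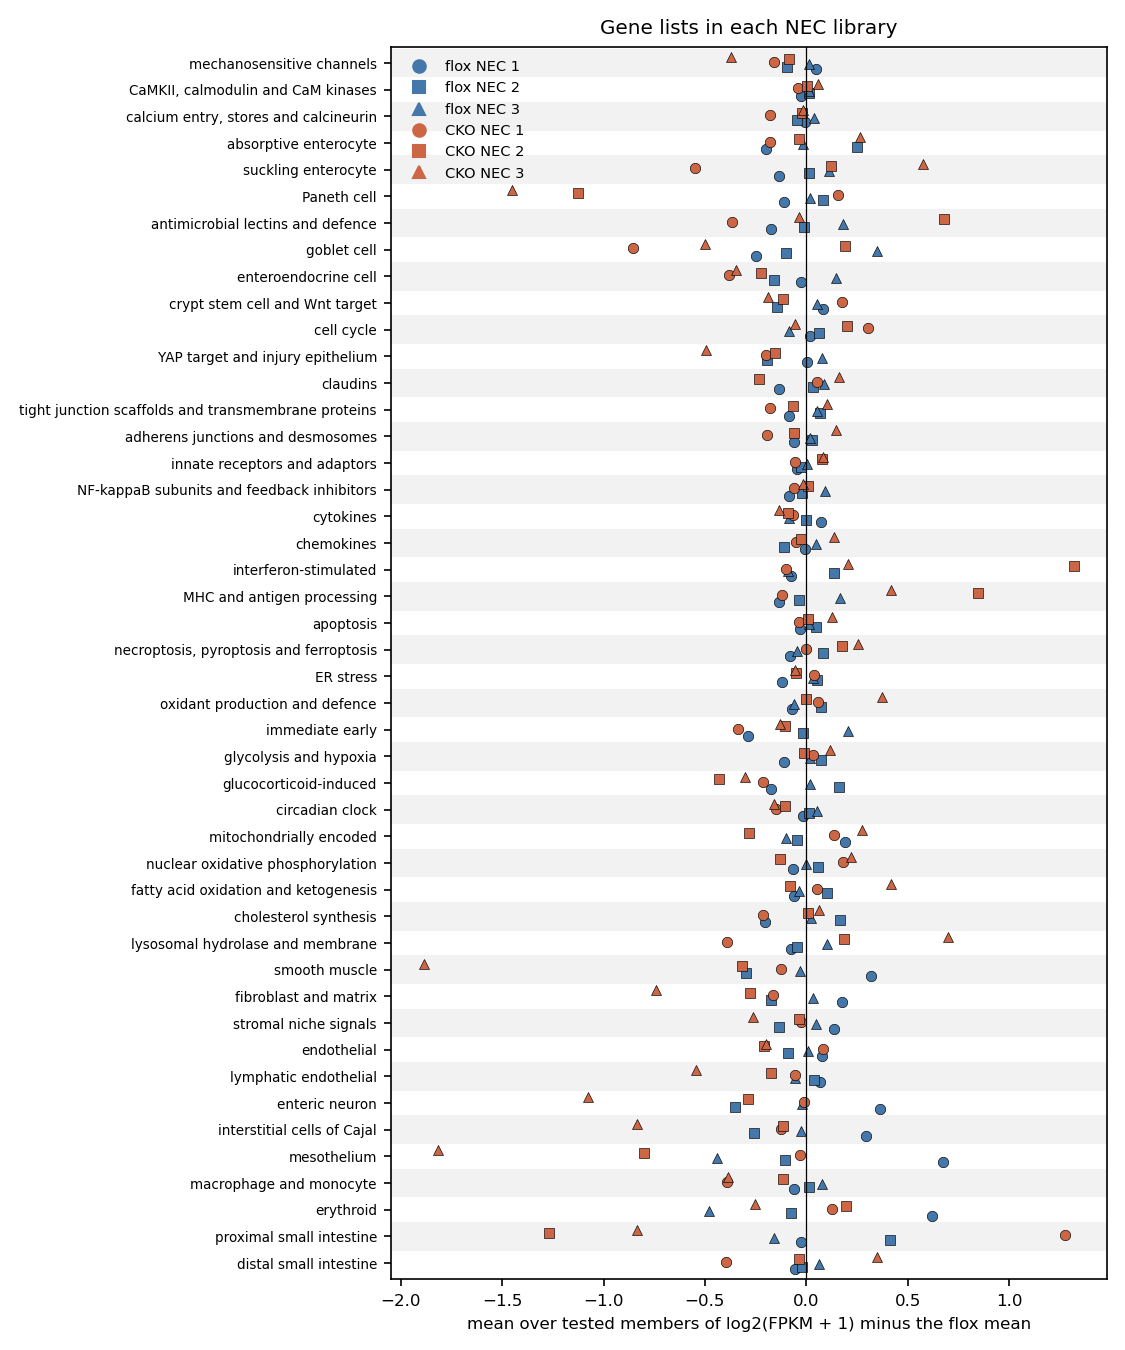
Median over the tested members of each gene list of log2(FPKM + 1) less the flox mean, in each NEC library (flox blue, CKO orange, symbols for replicates), for lists with at least 5 tested members. The axis label calls this median a mean. The CKO libraries lie far apart from each other in interferon-stimulated genes (library 2 at 1.32), Paneth cell genes (library 1 at 0.16, library 3 at -1.45) and smooth muscle genes (library 3 at -1.89).

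Whether the genotype difference in NEC differed from that in uninjured tissue was tested with all 12 libraries. The 2 conditions come from separately deposited tables, so each genotype difference was taken within its own table. Limma called 181 of 14808 genes (1.22%) in this interaction, 31 with a more positive and 150 with a more negative difference in NEC. In 175 of the 181 the difference between genotypes was larger in uninjured tissue than in NEC, with median sizes of 0.78 and 0.16, and 28 of the 170 that were also tested in NEC had an unadjusted p under 0.05 there. The count was 0 with the replicate number as a block and was 0 to 646 when single libraries were left out. Piezo1 was not among them, with 1.38, 1.44 and 1.09 FPKM in flox control and 1.71, 1.03 and 0.926 FPKM in CKO control, a genotype difference of -0.06 there and an interaction of -0.46 ± 0.25 (limma adjusted p = 0.325). Cxadr, by contrast, stood at 6.43, 9.48 and 9.89 FPKM in flox control and 17.3, 21.9 and 17.1 FPKM in CKO control, a genotype difference of 1.05 in uninjured tissue against -0.25 in NEC.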

How the data were processed

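Per the labels' protocols, Trizol was used to isolate total RNA and the NEBNext Ultra II kit to prepare libraries. The authors deposited FPKM values per gene with gene lengths, in 1 table for NEC and 1 for uninjured tissue. The sources used here name no aligner, counter or genome build. Start and end were identical to GENCODE M21 (GRCm38) for 98.3% of genes matched. FPKM times length fell on whole multiples of 1 step per library for 100% of values (tolerance 0.05), which gave the reads. FPKM plus 1 was put on the log2 scale, and genes that reached 1 FPKM in 3 or more libraries entered limma 3.58.1 (R 4.3.3), fitted with a mean-variance trend and Benjamini-Hochberg adjustment at 0.05. The NEC comparison used its 6 libraries and the interaction all 12. Exact permutation of 3 against 3 libraries cannot go below a two-sided p of 0.10, so none was run. Named genes were Piezo1, the 4 CaMKII genes, the 12 genes in each direction with the smallest p among non-overlapping genes of at least 5 mean FPKM (predicted models left out), the gene with the smallest p in each direction and up to 3 members of each of 60 gene lists. Other members are named to show the spread within a list and were chosen after their values were seen. Some genes that these rules name are not reported here. The genes, lists and rules were chosen with earlier results of these data known. Alternatives covered the pseudocount, filters, scaling, the replicate block, the variance model, sex, limma-voom on the reads and leaving out each library.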

Additional observations from a re-analysis of the deposited data

Results flagged for a closer look

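In 6 of the named genes the genotype difference in NEC differed from that in uninjured tissue by limma's interaction test, which called 181 of 14808 genes (1.22%). Most named genes were chosen for a small p in NEC, which is part of the same contrast. Their number among the calls was therefore not compared with that share, and their sides in NEC partly follow from the choice. Cxadr differed by -1.30 ± 0.22 SE (adjusted p = 0.0373), with 6.43, 9.48 and 9.89 FPKM in flox control and 17.3, 21.9 and 17.1 FPKM in CKO control. The desmosomal gene Dsg2 differed by -1.14 ± 0.18 (adjusted p = 0.0367), with 12, 13.7 and 16.2 FPKM in flox control and 25.3, 29.8 and 24.7 FPKM in CKO control. Tjp1 differed by -0.82 ± 0.16 (adjusted p = 0.0442), with 8.63, 9.84 and 9.81 FPKM in flox control and 14.1, 15 and 11.8 FPKM in CKO control. In these 3 junction genes all CKO control libraries lay above all flox control libraries, whereas all CKO NEC libraries lay below all flox NEC libraries. The control groups also differed in mitochondrial reads, at 11.1% to 14.3% in flox and 5.11% to 6.76% in CKO, and the part of this was not tested. By Xist and Y-linked genes, flox control library 1 was female and the other control libraries male.

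Man2a1 differed by -0.89 ± 0.16 (adjusted p = 0.0439) and Tsc22d2 by -0.66 ± 0.13 (adjusted p = 0.0442), with the same crossing of sides, at 5.94, 7.48 and 7.22 FPKM in flox control and 10.2, 11.3 and 8.94 FPKM in CKO control and at 4.49, 4.16 and 5.16 FPKM in flox control and 5.72, 5.97 and 5.99 FPKM in CKO control. The stromal and epithelial signal Wnt4 differed by 1.04 ± 0.22 (adjusted p = 0.0482) in the other direction, with 5.29, 3.66 and 5.73 FPKM in flox control and 2.67, 2.0 and 2.48 FPKM in CKO control and, in NEC, 1.24, 1.24 and 1.43 FPKM in flox against 1.51, 1.63 and 2.1 FPKM in CKO. None of the 6 differences in NEC passed limma's test on its own. No interaction call remained with the replicate number as a block, and 1 with sex as a covariate.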

How the results depend on the processing

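Limma called 0 genes in NEC under each alternative that kept all 6 libraries, including the replicate block, and 0 to 1 when each library was left out. The calls were Gm45774 without flox library 3 (higher), Defa21 without CKO library 1 (lower) and Gapdh without CKO library 3 (higher, at 1.45, 2.06 and 2.08 FPKM in flox against 19.4, 24.5 and 1.79 FPKM in CKO, a gene with many processed copies). Genes with an unadjusted p under 0.05 numbered 669 with the replicate block, 1179 with no filter, 354 at a mean FPKM of at least 5, 387 with sex as a covariate, and from 294 without flox library 1 to 1031 without CKO library 2 and 1138 without CKO library 1. Interaction calls, 181 in the fit reported, were 41 with no filter, 417 at a mean FPKM of at least 5, 379 with quantile normalization, 24 with equal library medians, 0 with the replicate block, 44 with no variance trend, 973 with array weights, 1 with sex as a covariate and 0 to 646 without single libraries, the highest without flox control library 3. The cause was not tested. Same-numbered CKO and flox NEC libraries correlated in their deviations from the group means at 0.182, -0.136 and 0.0933. Differently numbered libraries ranged from -0.288 to 0.213. Deviations sum to 0 within each group, so these correlations cannot decide whether the numbers pair the libraries. Of 46 list medians, 24 kept their sign without any single library, and 14 turned without CKO library 3 (a median that turned without some library was at most 0.23 in size). Piezo1, the 3 tested CaMKII genes, the 24 ranked genes and the gene of smallest p in each direction were called under none of the alternatives of the NEC comparison. Differences of genes near 1 FPKM are limited by their read number.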
